A study of Rattus norvegicus with 23 samples.

Results

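Expression of 9 CC chemokine receptors, Ccr1, Ccr2, Ccr3, Ccr4, Ccr6, Ccr7, Ccr8, Ccr9 and Ccr10, was examined in the lungs of elderly rats that had inhaled a titanium dioxide (TiO2) nano-aerosol. The receptors were chosen by name, as the non-control spots whose gene name was one of these 9 in the array file annotated most recently. They were read by 12 probes, of the 45598 probes and 25597 named genes on the array. Male F344 rats, aged 19 months when inhalation began, breathed either 10 mg/m3 of TiO2 or filtered air through the nose for 6 h a day on 5 days a week over 4 weeks. RNA of the accessory lung lobe was hybridised to single-colour arrays, with 1 rat per array: 6 control and 5 exposed rats on D0, immediately after exposure, and 6 control and 6 exposed rats on D28, after 28 days without exposure. For the 6 exposed rats of D28, one label field names day 0, whereas the titles, the descriptions and the study's methods give D28, which was followed. All groups shared strain, sex, age at the start and the nose-only procedure, so by design the controls and the exposed rats of a day differed in the aerosol. Their arrays were not spread evenly over the 5 slides. Genes typical of lung tissue, such as the surfactant protein genes, were high in every array, with a list mean between 15.49 and 15.87 on the log2 scale of the normalised signal.

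CC chemokine receptors are membrane proteins that cross the membrane several times and act through inhibitory G proteins. When a leukocyte meets a gradient of a chemokine, its receptor starts signals to phosphoinositide 3-kinase, phospholipase C and small GTPases that orient the cell and move it, and receptor kinases and arrestins then switch the receptor off. Ccr1 and Ccr2 are known from monocytes, Ccr3 from eosinophils, and the other receptors mainly from subsets of T cells, B cells, plasma cells and dendritic cells. In lung, these receptors draw leukocytes from blood into inflamed tissue and lead dendritic cells out to lymph nodes.

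The identity of each measurement rests on its probe, and the probes of a receptor did not all read alike, so their sequences are given first. Positions are those of rat build rn4 in the array files. Probes of Ccr9, Ccr1, Ccr3 and Ccr2 lay within 353 kb of chromosome 8, from first to last base, and those of Ccr8 and Ccr4 stood elsewhere on the same chromosome, which held 8 of the 12 probes. Of the 6 receptors shown with whole probes of 60 bases, the sequences, 5′ to 3′, were as follows, and no letter is capitalised because no motif was searched.
Ccr1, A_44_P358235, chr8:128694469-128694528, minus strand: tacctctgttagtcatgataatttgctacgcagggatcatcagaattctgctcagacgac
Ccr2, A_64_P100793, chr8:128893805-128893864, plus strand: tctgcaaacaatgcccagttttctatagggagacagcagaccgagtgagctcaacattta
Ccr3, A_44_P100397, chr8:128769167-128769226, plus strand: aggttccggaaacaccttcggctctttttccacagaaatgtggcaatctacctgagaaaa
Ccr4, A_64_P107632, chr8:118883267-118883326, minus strand: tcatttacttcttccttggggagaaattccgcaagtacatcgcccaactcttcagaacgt
Ccr7, A_44_P552514, chr10:87925806-87925865, minus strand: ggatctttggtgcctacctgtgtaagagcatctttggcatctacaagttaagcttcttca
Ccr8, A_44_P309666, chr8:125075971-125076030, plus strand: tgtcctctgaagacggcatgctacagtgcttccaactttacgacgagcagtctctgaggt

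Ccr3, Ccr6 and Ccr9 had 2 probes each, whose starts were 2001, 1619 and 851 bases apart. For the further probe of Ccr3 and both probes of Ccr6 and Ccr9 the first 30 bases are shown, because their differences between groups are set side by side below, and likewise for Ccr10, the receptor with the highest log2 FC of D28.
Ccr3, A_44_P730817, chr8:128771168-128771227, plus strand: atgattgtgttttcctgaggtcattatcca
Ccr6, A_44_P1100439, chr1:47113884-47113943, minus strand: gtctttagcgtactcccgccttttcccaca
Ccr6, A_64_P069256, chr1:47115503-47115562, minus strand: gccccgaaagcctttgtgaaacttgctatt
Ccr9, A_44_P411936, chr8:128541057-128541116, plus strand: cccaccaaaagcttagtgacatccacctca
Ccr9, A_64_P119901, chr8:128541908-128541967, plus strand: tgtctgtaacttcagttgcagaggatctga
Ccr10, A_64_P150509, chr10:90194383-90194442, minus strand: tcctactgagacccacagtgtctcttggga

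Of the 9 receptors, 7 were measurable and 2 were at background. A spot counts as well above background when the scanner software marks it so against the local background. Ccr1, Ccr2, Ccr6 and Ccr10 were well above background on 23 of 23 arrays, Ccr7 was so on 21, and both Ccr3 and Ccr9 had 1 probe that was so on 23. The probe of Ccr4 was well above background on 0 of 23 arrays, with processed signals between 2.77 and 9.83, and that of Ccr8 on 1 of 23. Both passed the filter on dim probes, which asked for 5 arrays above the negative control spots, with 6 and 5 arrays, so all 9 receptors and 12 probes were tested. No spot of a receptor was saturated. On each array, between 69.5% and 77.9% of all spots were well above background, and the array of control rat 4 of D28 was alone on its slide and was read by a later software version. Levels are not compared between receptors, because brightness depends on the probe. A lower level in RNA of a whole lobe cannot be told apart as fewer cells of a type or as less RNA per cell.

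**Figure D1:**
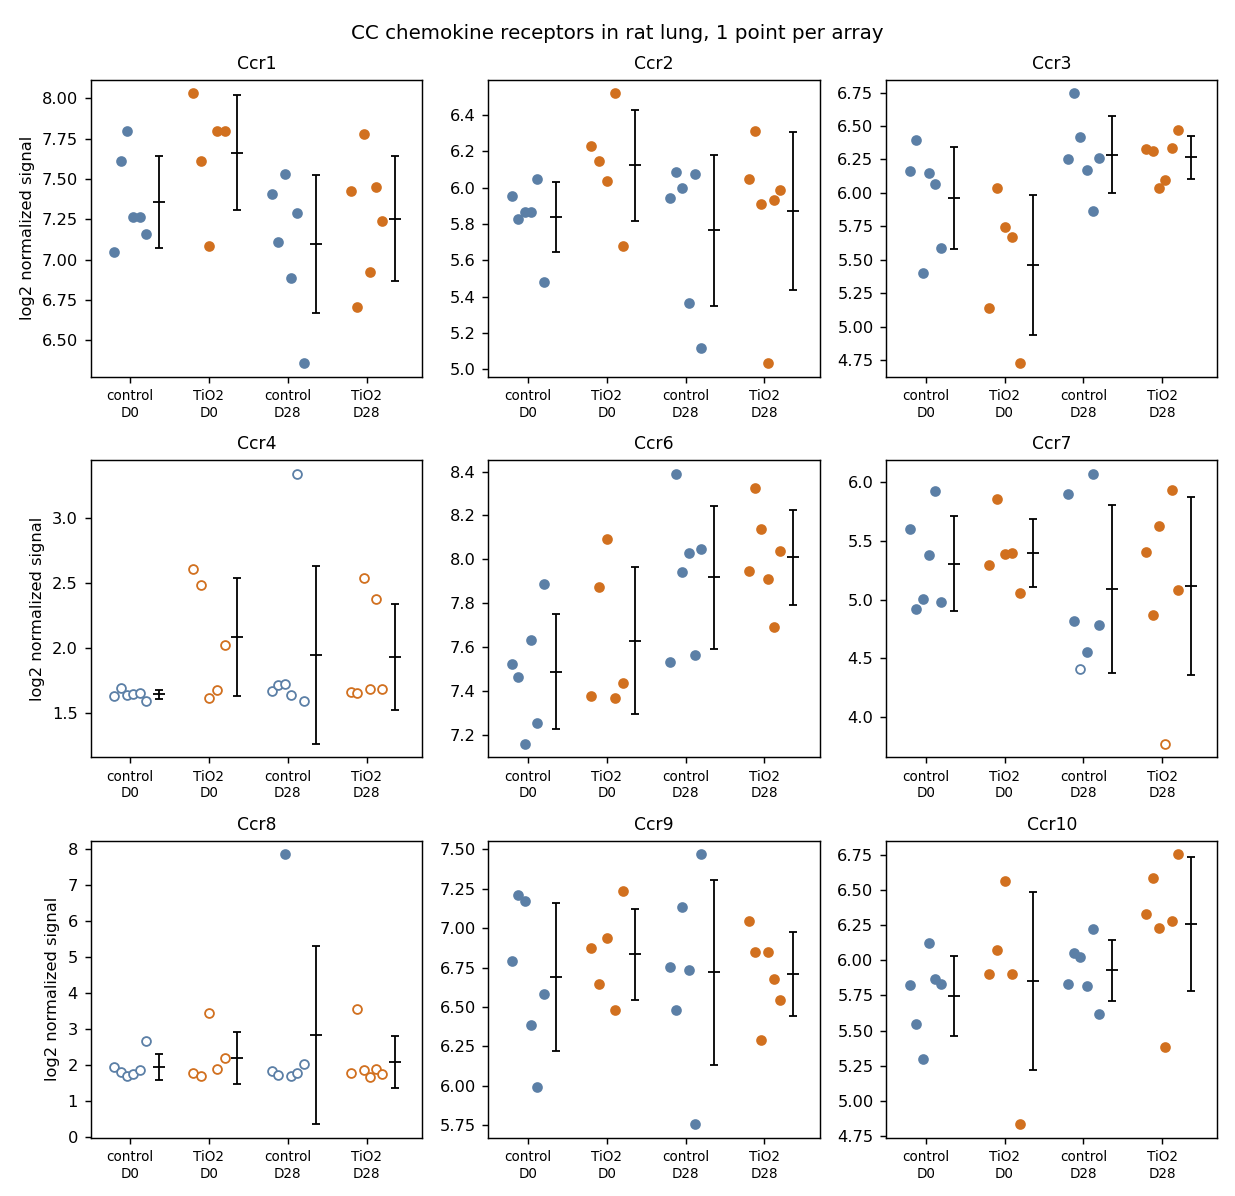
Log2 normalised signal of the 9 CC chemokine receptors (vertical axis, a scale of its own in each panel) in the 4 groups of arrays, control in blue and TiO2 in orange. Each point is 1 rat, filled where at least 1 probe was well above background and open where none was, and bars give the mean and SD. Ccr4 has open points alone, Ccr8 has 1 filled point at 7.86, and exposed and control rats overlap in every panel on both days.

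On D0, none of the receptors was a differentially expressed gene (DEG), defined as a Benjamini-Hochberg adjusted p from limma below 0.05 over 23028 genes and a fold change (FC) reaching 1.5 upwards or downwards. The count was 0 of 9, where 1.78% of all genes were DEGs. At an unadjusted p below 0.05, 1 receptor passed, Ccr3, against 11.9% of all genes. Exposed and control rats overlapped for 9 of 9 receptors, while 4.31% of all genes had groups that did not overlap. Over the 7 measurable receptors the log2 FC of exposed against control rats ran from -0.50 to 0.31, with a median of 0.14 and 6 above 0, beside a median of -0.00 and 49.9% above 0 over all genes. Adjusted p lay between 0.296 and 0.996. The 95% confidence interval stayed within the FC limit, 0.585 in log2, for Ccr6 alone, so a 1.5-fold change of the other 6 was within their intervals. Intervals of 50.4% of all genes stayed within this limit.

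Ccr1, which binds Ccl3 and Ccl5 on monocytes and neutrophils, had log2 signals of 8.03, 7.61, 7.08, 7.80 and 7.80 in the 5 exposed rats of D0. In the 6 control rats the lowest was 7.04, the median 7.26 and the highest 7.80. Exposed rat 1 was above all controls and the others were within their range or level with its upper end, and the log2 FC was 0.31 ± 0.22 (SE; adjusted p = 0.716). Ccr2, the receptor by which monocytes leave the bone marrow towards Ccl2, read 6.23, 6.15, 6.04, 6.52 and 5.68 in exposed rats. Controls ran from 5.48 over a median of 5.86 to 6.05. In Ccr2, 3 exposed rats stood above every control and the other two within their range, with a log2 FC of 0.28 ± 0.21 (adjusted p = 0.741). Within each of the 4 slides that held both groups of D0, the mean of exposed rats was higher than that of controls for Ccr2, by 0.05 to 0.56, and for Ccr1 this held on 3 of 4 slides, from -0.07 to 0.64.

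Ccr3, the receptor for eotaxins on eosinophils, was the receptor with the lowest log2 FC on D0, -0.50 ± 0.21 (unadjusted p = 0.0267, adjusted p = 0.296). Exposed rats read 5.14, 6.03, 5.75, 5.67 and 4.73, as the mean of both probes. Controls ran from 5.40 over a median of 6.11 to 6.40, so 2 exposed rats lay below all controls. The 95% interval reached from -0.93 to -0.06. Exposed rats were lower on 3 of 4 slides and higher on 1, with differences from -1.26 to 0.16.

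Ccr6, Ccr7, Ccr9 and Ccr10, known from lymphocytes and dendritic cells, had log2 FC of smaller size on D0 than Ccr1, Ccr2 and Ccr3. Receptors were not tested against each other, and their intervals overlapped. Ccr6, the receptor for Ccl20 on B cells and IL-17-producing T cells, had a log2 FC of 0.14 with an interval from -0.21 to 0.50, the narrowest of the 7. Its exposed rats read 7.38, 7.87, 8.10, 7.37 and 7.44 against controls from 7.16 to 7.89 with a median of 7.5. Ccr7, which leads mature dendritic cells and naive T cells to Ccl19 and Ccl21 in lymph nodes, read 5.30, 5.86, 5.39, 5.40 and 5.06 in exposed rats, all within the controls, which ran from 4.92 to 5.93 around a median of 5.20. Its log2 FC was 0.09, and its interval from -0.62 to 0.81 was the widest of the 7.

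Ccr9, known from T cells that home to the gut and thymus, had a log2 FC of 0.14 with an interval from -0.38 to 0.67. Exposed rats read 6.87, 6.64, 6.93, 6.48 and 7.24, and controls ran from 5.99 to 7.21 with a median of 6.69. Ccr10, a receptor for Ccl27 and Ccl28 on plasma cells and on T cells of the skin, had a log2 FC of 0.11 with an interval from -0.41 to 0.62. Its exposed rats read 5.90, 6.08, 6.56, 5.90 and 4.83, which put 1 above and 1 below all controls, whose lowest, median and highest were 5.30, 5.83 and 6.12.

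Ccr4 and Ccr8, receptors of regulatory and allergy-related T cells, had no array well above background on D0 in either group, and no FC is given. Ccr8 stood out on 1 array only, control rat 3 of D28, where its log2 signal was 7.86 and its processed signal 210.7, while the other 5 controls of D28 ran up to 2.05. On D28, 0 of 6 exposed arrays were well above background for Ccr8, against 1 of 6 controls, so by group means Ccr8 was at least 1.26-fold higher in control rats (adjusted p = 0.817), a bound set by this array.

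On D28, 0 of 9 receptors were DEGs, where 0.756% of all genes were. At an unadjusted p below 0.05 the count was again 0 of 9, against 11% of all genes, and 9 of 9 receptors had overlapping groups, where 1.22% of genes had groups apart. The log2 FC of the 7 measurable receptors ran from -0.02 to 0.33, with a median of 0.09 and 5 above 0, beside a median of -0.01 over all genes, and adjusted p lay between 0.685 and 0.996. The intervals of 4 of the 7, Ccr2, Ccr3, Ccr6 and Ccr9, stayed within the 1.5-fold limit, as did those of 52.6% of all genes. For Ccr3 and Ccr9 the value averaged 2 probes of opposite sign, so the interval does not bound either probe alone. A_44_P730817 and A_44_P100397 of Ccr3 had 0.34 ± 0.15 and -0.39 ± 0.31. A_64_P119901 of Ccr9 had 0.22 ± 0.22, and A_44_P411936, mostly at background, had -0.25 ± 0.42. Among receptors of monocytes, Ccr1 had a log2 FC of 0.16 ± 0.21 and Ccr2 of 0.10 ± 0.20. Exposed rats ran from 6.71 to 7.78 for Ccr1, with a median of 7.33, and controls from 6.36 to 7.53, with a median of 7.20.

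Ccr10 had the highest log2 FC of D28, 0.33 ± 0.24, with an interval from -0.16 to 0.82 (adjusted p = 0.685). Exposed rats ran from 5.38 over a median of 6.30 to 6.75, and controls from 5.62 over 5.93 to 6.22. Exposed rats were higher on 3 of 3 slides that held both groups of D28, by 0.03 to 0.97. Ccr7 was the most spread of the 7 within groups, with an SD of 0.76 in exposed and 0.71 in control rats of D28, and its log2 FC of 0.03 had an interval from -0.65 to 0.70. For Ccr6 the log2 FC was 0.09, with an interval from -0.25 to 0.43, while Ccr3 at -0.02, Ccr9 at -0.01 and Ccr7 changed sign under other settings.

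No receptor was called for a difference of its exposure effect between the days, which does not show equal effects. The interval of this difference stayed within the 1.5-fold limit for Ccr6 alone of the 7 measurable receptors, and for 37.8% of all genes. By the test of the difference between the effects of D28 and D0, 0 of 9 were called, against 0.0304% of all genes, and 0 of 9 had an unadjusted p below 0.05, against 3.44%. Of the 7 measurable receptors, the difference of log2 FC was largest for Ccr3, 0.48 ± 0.29, with an interval from -0.12 to 1.08. Between control rats of D28 and of D0, 0 of 9 receptors were called, against 0.608% of all genes, and 9 of 9 overlapped, where 1.62% of genes did not. Ccr6 was the receptor with an unadjusted p below 0.05 here, a share of 13.3% over all genes: its mean was 7.49 ± 0.26 (SD, n = 6) in controls of D0 and 7.92 ± 0.32 (n = 6) in controls of D28, a log2 difference of 0.43 (unadjusted p = 0.0156, adjusted p = 0.251 by limma).

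In exposed rats, D28 against D0, 0 of 9 receptors were called, against 0.352% of all genes, while Ccr3 and Ccr6 had an unadjusted p below 0.05, a share of 7.71% over all genes. Ccr3 was the receptor whose groups did not overlap here, as for 1.21% of all genes. It ran from 6.04 to 6.47 in the 6 exposed rats of D28 and reached at most 6.03 in those of D0, a log2 difference of 0.80 ± 0.21 (adjusted p = 0.125 by limma). Ordered by the means of the 4 groups, all 27 pairs of neighbouring groups of the 9 receptors had overlapping arrays. The comparisons of D28 with D0 share their samples with those of each day and are not independent of them.

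The 2 probes of Ccr3 gave different readings. The probe with the lower start, A_44_P100397, was well above background on 11 of 23 arrays: 1 of 6 controls and 1 of 5 exposed rats on D0, and 6 of 6 controls and 3 of 6 exposed rats on D28. The other, A_44_P730817, was so on all 23. After the group means were removed, the readings of both probes had a Pearson correlation of 0.41 over the 23 arrays, given as a description.

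Taken alone, A_44_P730817 read 7.24, 7.84, 7.84, 7.28 and 7.16 in exposed rats of D0, against controls from 7.61 over a median of 8.06 to 8.41. Its log2 difference was -0.57 ± 0.15 (unadjusted p = 0.00138, adjusted p = 0.0650 by limma over 40417 probes), with 3 exposed rats below every control. It passed the threshold without control rat 6 (adjusted p = 0.0306), exposed rat 2 (0.0389) or exposed rat 3 (0.0353) of D0. On D28 it had the opposite sign, 0.34 ± 0.15 (unadjusted p = 0.0305, adjusted p = 0.433), with exposed rats from 7.92 to 8.50 and controls from 7.74 to 8.22. The difference between both effects was 0.91 ± 0.21 and was not past the threshold over all probes (unadjusted p = 0.000342, adjusted p = 0.337). In exposed rats this probe was 0.83 ± 0.15 higher on D28 than on D0 (adjusted p = 0.0125), past the threshold as 0.354% of all probes were, with groups that did not overlap, as for 1.16% of probes. On each of the 4 slides that held both groups, exposed rats of D28 were higher, by 0.45 to 1.18. Without exposed rat 1 of D0 the adjusted p was 0.052 and without exposed rat 5 it was 0.0589, and in the other 21 fits that left out 1 array it was below 0.05. This comparison and the tests of single probes were added after the data were seen. The adjusted p does not account for that choice. In controls the same probe differed by -0.08 ± 0.15 between the days (adjusted p = 0.879). The dimmer probe, A_44_P100397, rose between the days in controls too, by 0.73 ± 0.31 (unadjusted p = 0.0302, adjusted p = 0.330 by limma). In exposed rats it rose by 0.77 ± 0.33 (adjusted p = 0.630). Between exposed and control rats it had -0.43 ± 0.33 on D0 and -0.39 ± 0.31 on D28 (adjusted p = 0.855 and 0.799). On D28 exposed rats were higher on 0 of 3 slides by A_44_P100397 and on 3 of 3 by A_44_P730817. Over the 12 probes tested on their own, 0 were called between exposed and control rats on D0 or on D28.

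**Figure D2:**
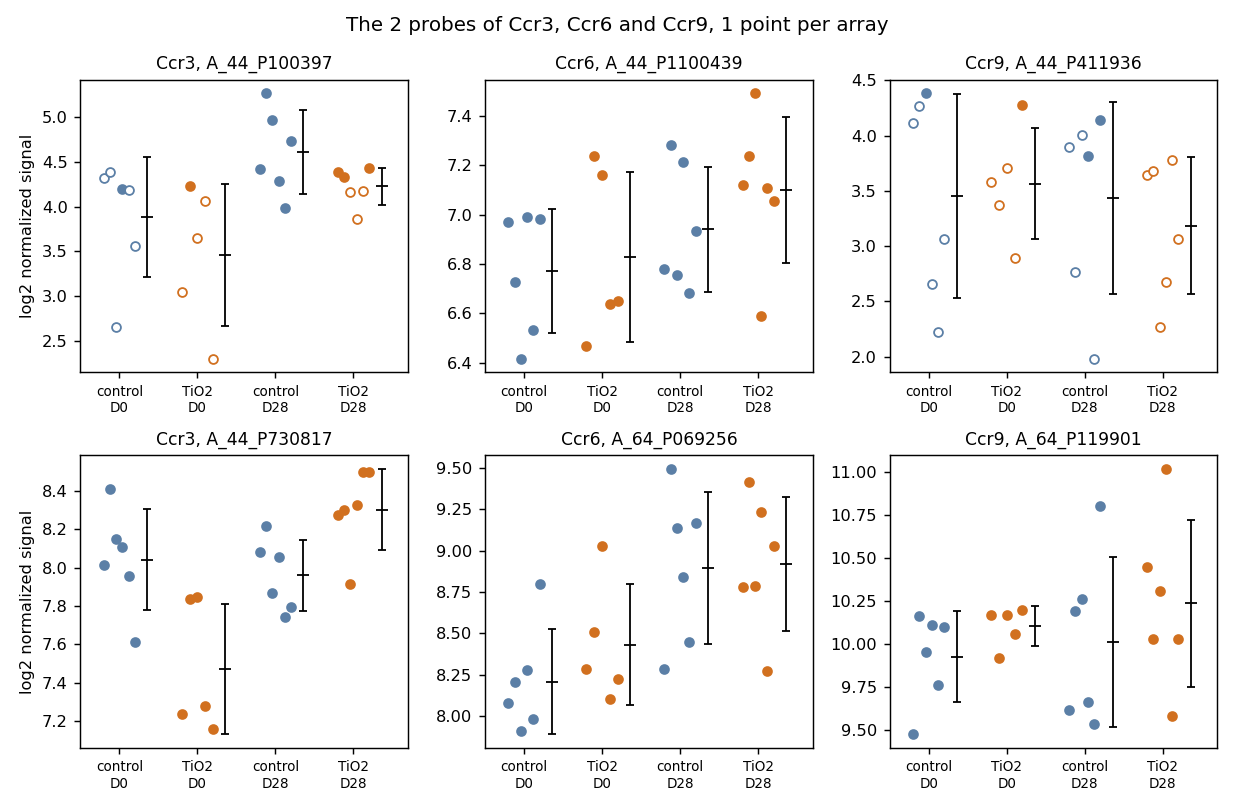
Log2 normalised signal (vertical axis, a scale of its own in each panel) of both probes of Ccr3, Ccr6 and Ccr9 in the 4 groups, control in blue and TiO2 in orange. Each point is 1 rat, filled where well above background, and bars give the mean and SD. For A_44_P730817 of Ccr3, the exposed rats of D0 reach at most 7.84 and those of D28 start at 7.92.

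Both probes of Ccr6 were well above background on all 23 arrays, with a correlation of 0.40 within groups. Between the controls of both days, A_64_P069256 had a log2 difference of 0.69 ± 0.22 (adjusted p = 0.187) and A_44_P1100439 one of 0.17 ± 0.16 (adjusted p = 0.719). In Ccr9, A_44_P411936 was well above background on 4 of 23 arrays and A_64_P119901 on all of them. The latter had log2 differences of 0.18 ± 0.23 on D0 and 0.22 ± 0.22 on D28. On D0, A_44_P411936 was well above background on 1 of 6 controls and 1 of 5 exposed rats, with a log2 difference of 0.11 ± 0.44. On D28 it was so on 2 of 6 controls and 0 of 6 exposed rats. Its group mean was then 1.19-fold higher in controls (adjusted p = 0.934 by limma), a FC between values mostly at background.

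The question whether receptors moved with their ligands was addressed with a list of 20 CC chemokines, all tested. On D0, 4 of the 20 were over-expressed DEGs, where 1.09% of all genes were, and on D28 2 of the 20 were, where 0.486% of genes were. The median log2 FC of the list was 0.24 on D0 and 0.12 on D28. Ccl2, Ccl7 and Ccl12, the ligands of Ccr2, had log2 FC of 1.46, 1.99 and 1.91 on D0 (adjusted p = 0.00658, 0.000626 and 0.0303), beside 0.28 for Ccr2 itself, whose interval ended at 0.72. Ccl1, the ligand of Ccr8, was 2.31 higher (adjusted p = 0.00106) while its receptor stayed at background on all 11 arrays of that day. On D28, Ccl1 was 1.5 higher (adjusted p = 0.0386), and Ccr8 was well above background on 0 of the 6 exposed arrays.

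No other ligand was a DEG on D0. Ccl3, which binds Ccr1, had a log2 FC of 0.48 (adjusted p = 0.0272), under the FC limit. Further ligands of Ccr1 went both ways. By limma, Ccl9 had 0.30 (adjusted p = 0.431), Ccl5 -0.29 (adjusted p = 0.921) and Ccl6 -0.28 (adjusted p = 0.327). On D28 they had 0.10, -0.61 and -0.38, in the same order. Ccl7, which also binds Ccr1 and Ccr3, had the 1.99 given above for D0. Among the eotaxins, which bind Ccr3, Ccl11 had -0.33 and Ccl24 -0.38 on D0, and Ccl26 was not well above background. Ccl17 and Ccl22, the ligands of Ccr4, had 0.68 and 0.55 (adjusted p = 0.132 and 0.398), with Ccr4 at background. Ccl20, the ligand of Ccr6, had 0.19, while Ccl19 and Ccl21, the ligands of Ccr7, had -0.40 and -0.18. For Ccl25, which binds Ccr9 and was well above background on 5 of 23 arrays, the value was -0.19.

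Ccl27 and Ccl28, the ligands of Ccr10, had log2 FC of -0.20 and 0.76 on D0 (adjusted p = 0.611 and 0.148), where the probe of Ccl28 was well above background on 1 of 6 control and 4 of 5 exposed arrays. On D28 Ccl28 was the second ligand called (adjusted p = 0.0364 by limma). Its probe was then well above background on 1 of 6 exposed and 0 of 6 control arrays. The group mean of Ccl28 was 2.08-fold higher in exposed rats, a FC between values mostly at background. Its receptor Ccr10 had the log2 FC of 0.33 given above. Ccl1 fell below the threshold on D28 when any array of that day was left out but those of control rat 4 and exposed rat 3, and Ccl28 likewise but for control rats 2 and 6 and exposed rat 1. On D0, Ccl12 was lost without any array of that day but those of control rats 1 and 2 and exposed rat 5.

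**Figure D3:**
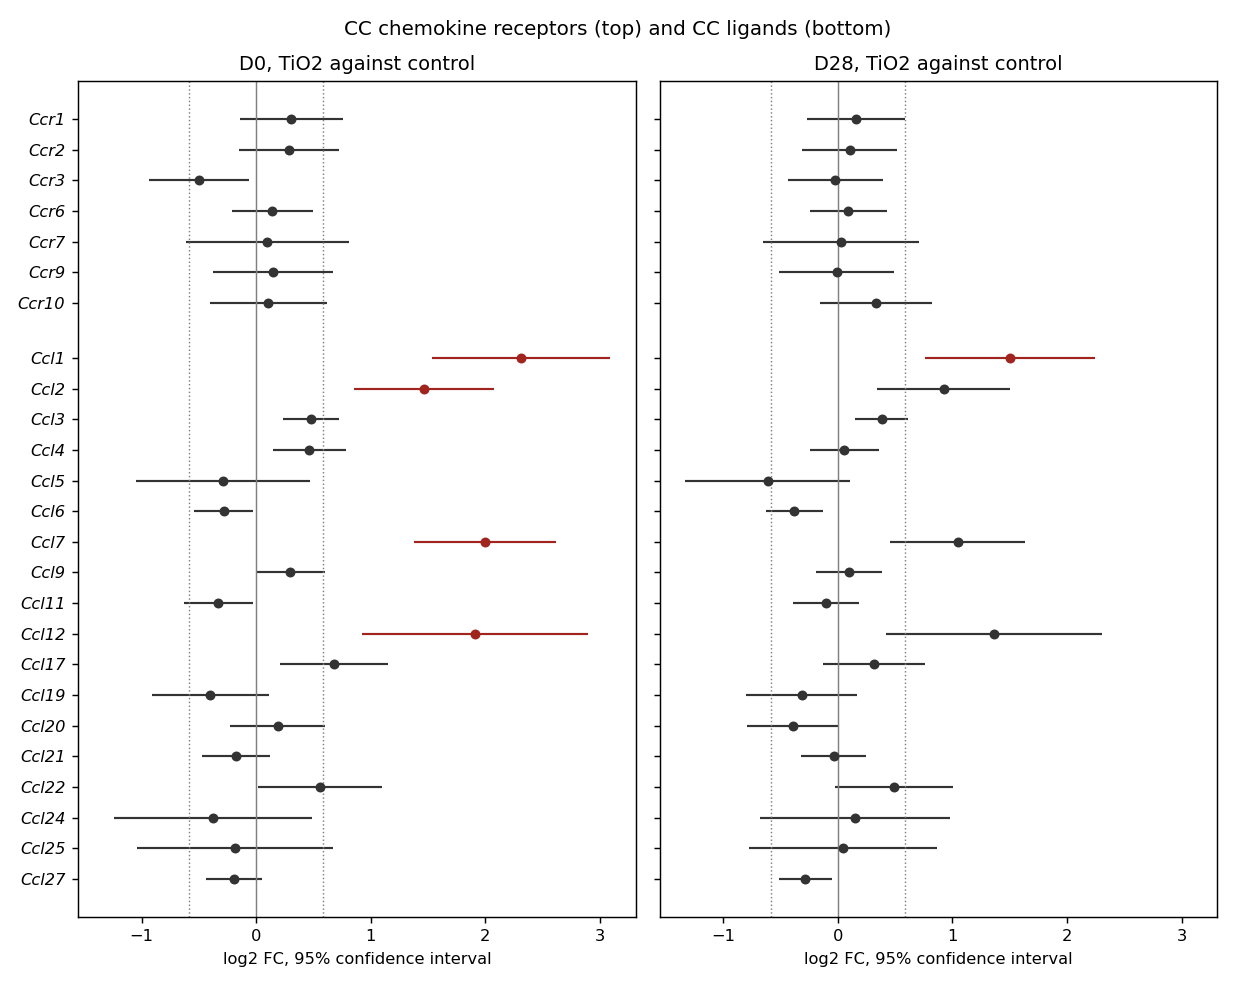
Log2 FC of exposed against control rats (horizontal axis) with 95% confidence intervals on D0 (left) and D28 (right), for the 7 measurable receptors above and, below them, the ligands measured in both groups on both days. Red marks DEGs, and dotted lines mark a FC of 1.5 in either direction. On D0, Ccl1, Ccl2, Ccl7 and Ccl12 lie between 1.46 and 2.31, while the receptors lie between -0.50 and 0.31.

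Genes that carry the signal of these receptors inside the cell were counted next. Of the 38 listed, among them inhibitory G protein subunits, receptor kinases, arrestins, phosphoinositide 3-kinase gamma and regulators of G protein signalling, 36 were tested, with 0 called on D0, where 1.78% of all genes were, and 0 on D28, where 0.756% were, so that no call on a list of this length is near the share over all genes. Their median log2 FC was 0.07 on D0 and 0.00 on D28. Vav1, an exchange factor for Rac in leukocytes, had an adjusted p of 0.0467 on D28 with a log2 FC of 0.42, under the FC limit. Prkcd, protein kinase C delta, was called between control rats of D28 and D0 with a log2 difference of 0.67.

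Markers of the leukocytes that bear these receptors were counted beside them, from lists of general knowledge. At the shares of DEGs over all genes, 1.78% on D0 and 0.756% on D28, lists this short would hold few DEGs or none, and a count of 0 says nothing particular about a cell type. Of 14 genes of monocytes and macrophages, the cells of Ccr1 and Ccr2, 2 were DEGs on D0: Itgam, a leukocyte integrin chain, with a log2 FC of 0.99 (adjusted p = 0.000123), and Siglec1, a sialic acid receptor of macrophages, with 0.89 (adjusted p = 0.00263). Cd68, a lysosomal protein of macrophages, had 0.55 (adjusted p = 0.00293), under the FC limit. Of the 14 genes, 11 were above 0 on D0, with a median log2 FC of 0.22. Others of the list changed little or were lower: Csf1r had 0.01, Lyz2 0.06, Cx3cr1 0.05, Adgre1 -0.25, Fcgr3a -0.28 and Nr4a1 -0.64. Itgam was also called on D28, with 0.93 (adjusted p = 0.000300). The list mean of each array lay between 9.39 and 9.72 in controls and between 9.69 and 10.05 in exposed rats on D0, and between 9.36 and 9.62 in controls and 9.57 and 9.83 in exposed rats on D28.

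Of the 5 eosinophil genes tested, the cells of Ccr3, Alox15, a lipoxygenase that macrophages also use, was lower on D0 by a log2 FC of -1.03 (adjusted p = 0.0213), and the defining granule gene Epx was at background on all 23 arrays. Prg2, the granule major basic protein, was measured and had a log2 FC of -0.38 (adjusted p = 0.395), while Siglec5 and Siglec8 had 0.02 and 0.12 (adjusted p = 0.996 and 0.944). The eosinophil list mean ran from 5.63 to 6.15 in controls and from 5.31 to 5.75 in exposed rats on D0, a mean that includes Alox15. The part of these genes in the value of Ccr3 was not tested.

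Among lymphocytes, 0 of 13 T cell genes, 0 of 5 regulatory T cell genes and 0 of 7 plasma cell genes were DEGs on D0. Of the cytokine genes of IL-17-producing lymphocytes, Il17a was well above background on 3 of 23 arrays and Il17f on 1. None of 11 B cell genes was a DEG on D0, and Spib, a transcription factor of B cells and some dendritic cells, had -0.54 (adjusted p = 0.00888). Clec9a, a lectin of cross-presenting dendritic cells, was the DEG among 9 dendritic cell genes, with 1.00 (adjusted p = 0.0243). Among 9 neutrophil genes, cells that also carry Ccr1, Lcn2, a siderophore-binding protein that epithelium also secretes, had 1.65 on D0 (adjusted p = 0.00139) and was the DEG of the list. Of the 9, 4 were above 0, with a median log2 FC of -0.06, and S100a8 and S100a9, calcium-binding proteins of neutrophils, had 0.27 and 0.63 (adjusted p = 0.948 and 0.612), while Mmp9 had -0.44 and Csf3r -0.19. None of 9 mast cell genes was a DEG. On D28, 0 genes of these T cell, B cell, plasma cell, dendritic cell, neutrophil and mast cell lists were DEGs. Of the muscle genes, Myl7, which comes from heart muscle around the pulmonary veins, was lower on both days, by log2 FC of -0.60 and -0.63 (adjusted p = 0.0099 and 0.0107), and its part in the receptors' values was not tested.

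**Figure D4:**
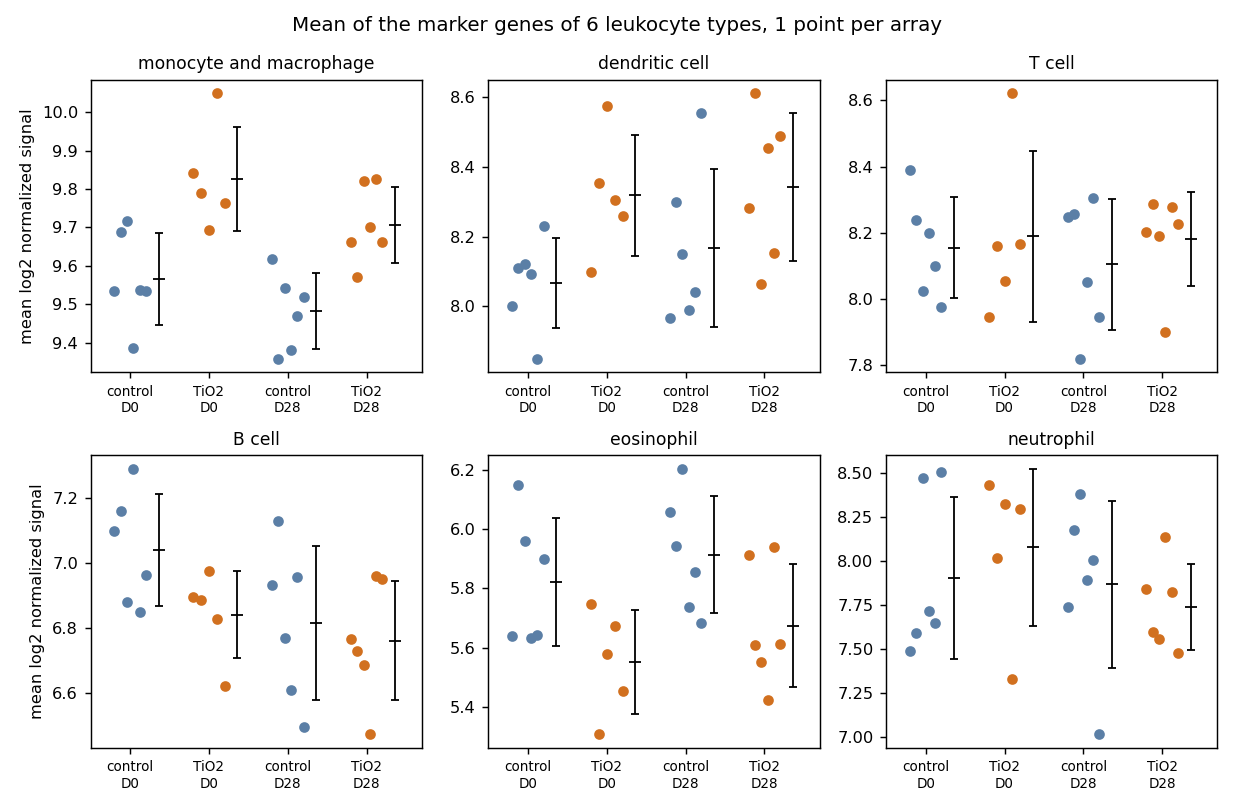
Mean log2 normalised signal of the marker genes of 6 leukocyte types (vertical axis, a scale of its own in each panel) in the 4 groups, control in blue and TiO2 in orange, with 1 point per rat and bars for the mean and SD. The monocyte and macrophage list reaches 9.72 in controls of D0 and starts at 9.69 in exposed rats, and the other lists overlap more widely.

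Across the 23 arrays, after the mean of each group was removed, the receptors went with different lists, which is given as a description, since all points share the arrays' normalisation. Ccr10 had its highest Pearson correlations with the means of the plasma cell list (0.68) and the B cell list (0.65). Ccr2 went with B cell (0.63) and T cell (0.58) genes and hardly with the macrophage list (0.11), whereas Ccr1 had 0.57 with eosinophil and 0.56 with macrophage genes and -0.69 with dendritic cell genes. Ccr6 had 0.60 with dendritic cell and -0.62 with macrophage genes, and Ccr7 had 0.52 with T cell and -0.50 with dendritic cell genes. Ccr3 had 0.02 with the eosinophil list and 0.51 with the B cell list.

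Among the receptors themselves, the correlation within groups was highest between Ccr2 and Ccr10 (0.62), Ccr2 and Ccr7 (0.55) and Ccr3 and Ccr10 (0.55), and lowest between Ccr7 and Ccr9 (-0.56) and Ccr1 and Ccr6 (-0.55). The genes most like each receptor by the same measure, over all genes tested, were Slc35f5 for Ccr1 (0.88), LOC103692956 for Ccr2 (0.86), Gpld1 for Ccr3 (0.83), LOC108352131 for Ccr6 (0.86), Spry1 for Ccr7 (0.92), Hes2 for Ccr9 (0.81) and LOC102548694 for Ccr10 (0.85). Next came Srpra and RGD1562625 for Ccr1, Slc16a10 and Map2k6 for Ccr2, Afap1l2 for Ccr3, Hivep3 and Dexi for Ccr6, Ftsj1 and Pcca for Ccr7, Tmed7 and LOC102556297 for Ccr9, and Syde2 and Scn7a for Ccr10. For Ccr4 and Ccr8, at background, the likeness is not given.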

How the data were processed

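Total RNA of the accessory lobe of 23 rats was hybridised to Agilent single-colour arrays. The authors deposited the scanner software's intensity per spot for each array, the processed signal among them, corrected for background but not between arrays, and a table of quantile-normalised intensities. Feature Extraction 11.0.1.1 had read 22 arrays, and version 12.0.1.1 had read the other, whose gene names were used. From the processed signal, control and outlier spots were left out. A probe entered the analysis if on at least 5 arrays it exceeded the 95th percentile of 308 negative control spots, log2 values were quantile normalised, and 32414 of 40417 kept probes were averaged to 23028 genes, leaving out 29 with a missing value. No sequencing depth applies, and the number of arrays limits the precision. One limma (3.58.1, R 4.3.3) model with a mean per group, tested on simulated data, gave moderated tests with 19 residual degrees of freedom. The study's methods name a batch correction without the batches, so none was applied, and the slide (5 in all) was tried as a block. The receptors, lists and tests were chosen with earlier results of these data known: all receptors were to be named, listed genes when called first, and the 3 genes most correlated with each receptor. The alternatives were 16 settings, the test of each probe on its own among them, and 23 fits leaving out 1 array, and the comparison of exposed rats between days and the single probes were added after seeing the data. Some results of the listed and most correlated genes are not reported here.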

Additional observations from a re-analysis of the deposited data

Results flagged for a closer look

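In the groups of 5 or 6 arrays, 6 receptor values stood far from the rest of their group by Dixon's test, of 60 groups of receptors and single probes examined. Chance alone gives about 1 in 20 such groups.

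Ccr2 had 1 low array on D28, exposed rat 4 with a log2 signal of 5.03, where the nearest other exposed rat had 5.91. The remaining 5 arrays concern the receptors at background. For Ccr8, 1 array stood above the rest in each group: 2.66 in control rat 6 of D0 (nearest 1.95), 3.45 in exposed rat 3 of D0 (nearest 2.21), 7.86 in control rat 3 of D28 (nearest 2.05) and 3.55 in exposed rat 2 of D28 (nearest 1.89). Of these, control rat 3 of D28 was well above background. For Ccr4, control rat 5 of D28 read 3.34, against 1.72 in the nearest control, and was not well above background.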

How the results depend on the processing

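The count of CC chemokine receptors called was 0 on D0, on D28, for the difference between the days and for control rats of D28 against D0 in every setting tried and in all 23 fits that left out 1 array. Fewer than 9 receptors could be tested under both stricter filters (7) and in 5 of the fits that left out an array (8), since Ccr4 or Ccr8 then failed the filter. The replicate block left the count at 0: the shared numbers did not pair the rats, with correlations of same-numbered arrays from -0.23 to -0.12 on D0 and from -0.17 to 0.46 on D28, and it moved the CC ligands called on D28 from 2 to 1. Other settings gave 0 to 5 of these ligands on D28, and array weights gave 7 on D0 in place of 4. All genes called ran from 221 to 946 on D0 around 411, from 42 to 664 on D28 around 174, from 5 to 461 for the difference around 7, and from 97 to 763 for controls around 140.

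Signs changed where log2 FC lay near 0. On D28, Ccr9 (-0.01) became 0.0094 with scaling to the 75th percentile, 0.0065 with cyclic loess, 0.084 with normexp, 0.104 in the deposited table, 0.225 with probes well above background, 0.225 with the brightest probe and 0.0838 with array weights. Ccr3 (-0.02) became 0.0987 with normexp, 0.0855 in the deposited table and 0.343 with the brightest probe, and Ccr7 (0.03) became -0.0961 with the slide as a block. Ccl25 (0.04) became -0.0384 with scaling to the 75th percentile, -0.0605 with loess, -0.0432 in the deposited table, -0.104 with array weights and -0.0755 with the slide as a block, which also gave Ccl11 0.0132 in place of -0.10. Between exposed rats of D28 and D0, Ccr9 (-0.12) became 0.0368 with normexp, 0.0441 in the deposited table, 0.133 with probes well above background and 0.132 with the brightest probe, which also put Ccr3 past the threshold (0.83, adjusted p = 0.00821 by limma). The cause was not tested.

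Leaving out 1 array moved log2 FC across 0 for Ccr7 (-0.0194 to 0.219) and Ccr10 (-0.0716 to 0.362) on D0, and on D28 for Ccr2 (-0.0247 to 0.274), Ccr3 (-0.106 to 0.0709), Ccr7 (-0.138 to 0.296), Ccr9 (-0.205 to 0.136), Ccl4 (-0.0083 to 0.109), Ccl9 (-0.0034 to 0.15), Ccl21 (-0.127 to 0.0406), Ccl24 (-0.0612 to 0.341) and Ccl25 (-0.26 to 0.337). With 5 or 6 rats per group, the intervals of most receptors on D0 included a FC of 1.5.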
